A study of Mus musculus with 10 samples.

Results

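The genes described here encode proteoglycans of the extracellular matrix of heart valves and connective tissue. They are the large chondroitin sulfate proteoglycans Acan and Vcan, their link protein Hapln1, and the small leucine-rich proteoglycans Bgn, Dcn, Lum, Fmod, Ogn, Prelp and Omd. The 10 genes were chosen by name, out of 17575 gene names in the deposited tables, and all 10 were found. RNA of hearts was sequenced from male mice at 1 week of age, 3 WT, 3 Ft1ko and 4 Ft1sm22ko. Ft1, encoded by the mouse gene Aktip, is needed for telomere integrity. In Ft1ko mice a floxed Ft1 allele was deleted in the whole body by CMV-cre. In Ft1sm22ko mice the same floxed allele was deleted by sm22-cre, which is driven by the promoter of Tagln, a gene of smooth muscle. The sm22 driver reaches only part of the cells of a heart, so that undeleted cells remain in those samples. Neither the labels nor the methods give a strain for these hearts, and no allele or treatment is given for WT.

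Proteoglycans are core proteins that carry sulfated sugar chains. Versican (Vcan) and aggrecan (Acan) bind the polysaccharide hyaluronan, and the link protein Hapln1 holds that bond, so that large hydrated aggregates form. These are a hallmark of the cushions from which heart valves arise and of the spongy layer of the mature valve. The small leucine-rich proteoglycans bind collagen instead and control how fibrils grow in width and spacing. Biglycan (Bgn) and decorin (Dcn) carry chondroitin or dermatan sulfate, lumican (Lum), fibromodulin (Fmod) and osteomodulin (Omd) can carry keratan sulfate, Prelp anchors connective tissue to basement membranes, and Ogn encodes osteoglycin, also called mimecan.

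The deposited tables hold no column for a single heart. Reads per heart were recovered from the deposited means, which are sums of whole reads divided by 1 size factor per library. Hearts are named by group and a letter, roughly in order of size factor, since the recovered libraries carry no replicate number. Reads in the recovered genes differed between groups. They were 2688374 to 7211967 in WT hearts, 8998037 to 13748406 in Ft1ko and 11463006 to 22133062 in Ft1sm22ko. The full depth of each library is not known, because the reads of very abundant genes were not recovered. Levels below are normalized reads, that is reads divided by the size factor of the library. Each comparison was fitted with limma on log2(normalized reads + 1) over all genes whose mean in its hearts reached 10 normalized reads. A gene was called at an adjusted p (Benjamini-Hochberg over all genes tested) under 0.05, and fold changes refer to that log2 scale. The labels do not say whether hearts of a group came from separate litters. The p-values test a difference of group means against the spread between these hearts only. For each gene limma draws that spread towards the trend over all genes tested.

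The targeted gene was lower in both mutants. Aktip was at 851 to 1109 normalized reads in WT, 205 to 284 in Ft1ko and 306 to 594 in Ft1sm22ko. In limma the log2 fold changes were -1.92 for Ft1ko (SE 0.24, adjusted p = 0.00178) and -1.24 for Ft1sm22ko (SE 0.24, adjusted p = 0.00626). The difference between the mutants was not called (0.69, SE 0.24, adjusted p = 0.0884). These are reads of the whole gene, whereas the paper reports no transcripts in Ft1ko over the deleted region. Libraries also stood apart in ways the genotype labels do not name, as the plot of summed cell type markers shows. The summed level of 5 atrial markers was 174 to 513 normalized reads in WT, 27600 to 63989 in Ft1ko and 14428 to 56192 in Ft1sm22ko. The summed level of 8 lung epithelium markers was 59061 and 149531 in Ft1ko a and b, 15773 in Ft1sm22ko d, 4879 in Ft1ko c and at most 1762 in each of the other hearts. Thymocyte markers, 9 genes, summed to 22286 in Ft1ko c and to at most 508 elsewhere. Myh7, the only 1 of 8 ventricular markers whose reads were recovered, was at 16983 in Ft1sm22ko c and at 189 to 5343 in the other hearts. The other 7, such as Myh6 and Myl2, were too abundant for their reads to be recovered, so the labelled tissue was not checked heart by heart with them. How far these differences in the sampled tissue go with the proteoglycan levels was not tested beyond leaving hearts out, and atrial markers and Ft1 genotype cannot be told apart in the comparisons with WT. In whole hearts, more cells of a type and more RNA per cell cannot be told apart either.

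**Figure D1:**
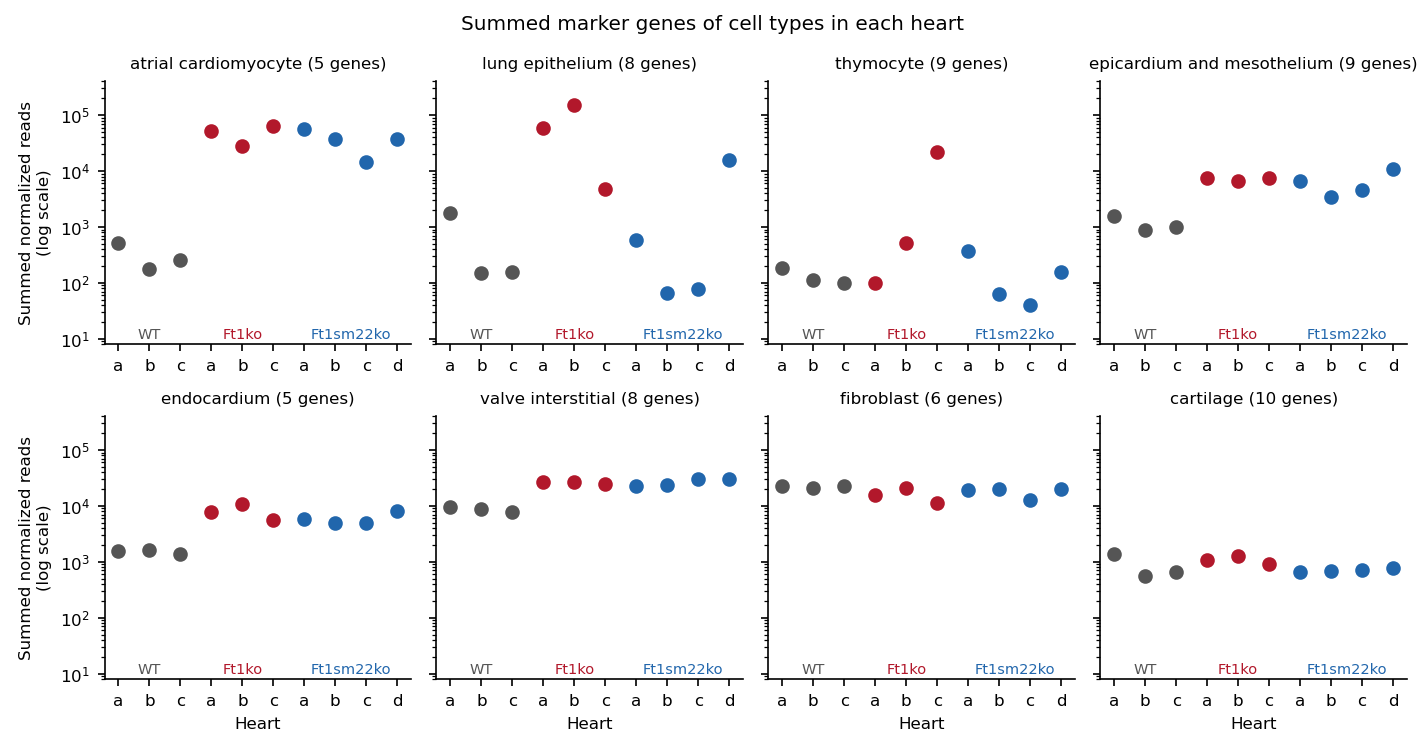
Summed normalized reads (log scale) of marker genes of 8 cell types in each heart, 1 point a heart, with the number of genes summed in each title. Atrial markers are at 174 to 513 in WT and at 14428 or more in every mutant heart, lung markers are highest in Ft1ko a and b, and thymocyte markers are high in Ft1ko c.

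Proteoglycan RNA was higher in both mutants than in WT, and the same 5 genes, Vcan, Hapln1, Bgn, Lum and Fmod, were called in each. Hapln1, at a mean of 2.73 normalized reads in WT, passed the filter only through the mutant hearts. Its count among the genes that rose is therefore not independent of the filter. Where a mean of at least 50 normalized reads was asked for, Hapln1 was not tested and 5 members were called higher in each comparison. In Ft1ko hearts 6 of 9 tested genes rose, the sixth being Acan, and none fell. This compares with 18.1% of all 14084 genes tested called higher and 14% called lower. In Ft1sm22ko hearts 6 of 10 rose, the sixth being Ogn, and none fell, against 16.3% of 13932 genes called higher and 14.1% called lower. No member had an unadjusted p under 0.05 in the lower direction in either comparison with limma, nor was one called lower with voom weights. The median log2 fold change was 1.81 over the 9 members tested in Ft1ko and 1.36 over the 10 tested in Ft1sm22ko. That of all genes tested was 0.07 and 0.05. Omd, too low to be tested in Ft1ko, had a mean of 9.58 normalized reads there and 17.4 in WT. The medians of the members thus cover unlike sets and do not rank the mutants. Every mutant heart lay above every WT heart in 6 of 9 members tested in Ft1ko, against 27.1% of all genes tested. In Ft1sm22ko this was so for 6 of 10 members, against 22.2% of all genes tested. In each comparison these were the same 6 genes that were called, so the gap is not independent of the call. Both comparisons share the 3 WT hearts, so their likeness is not independent. Libraries were also scaled by their total reads in the recovered genes, and the 6 genes of each comparison were called again. The share of higher among all called genes then moved from 56.4% to 71.5% in Ft1ko and from 53.5% to 70.2% in Ft1sm22ko. The median of all genes moved to 0.32 and 0.23. These totals leave out genes that hold 44.5% of the summed signal of WT and Ft1ko. That share was 44.2% for WT and Ft1sm22ko, and 24.8% for both mutants. Scaling by all reads of a library was not possible. With the stricter Bonferroni adjustment of the limma p-values, 0 members passed in either comparison. The study applied that adjustment to DESeq2 tests, whose p-values were not used here.

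**Figure D2:**
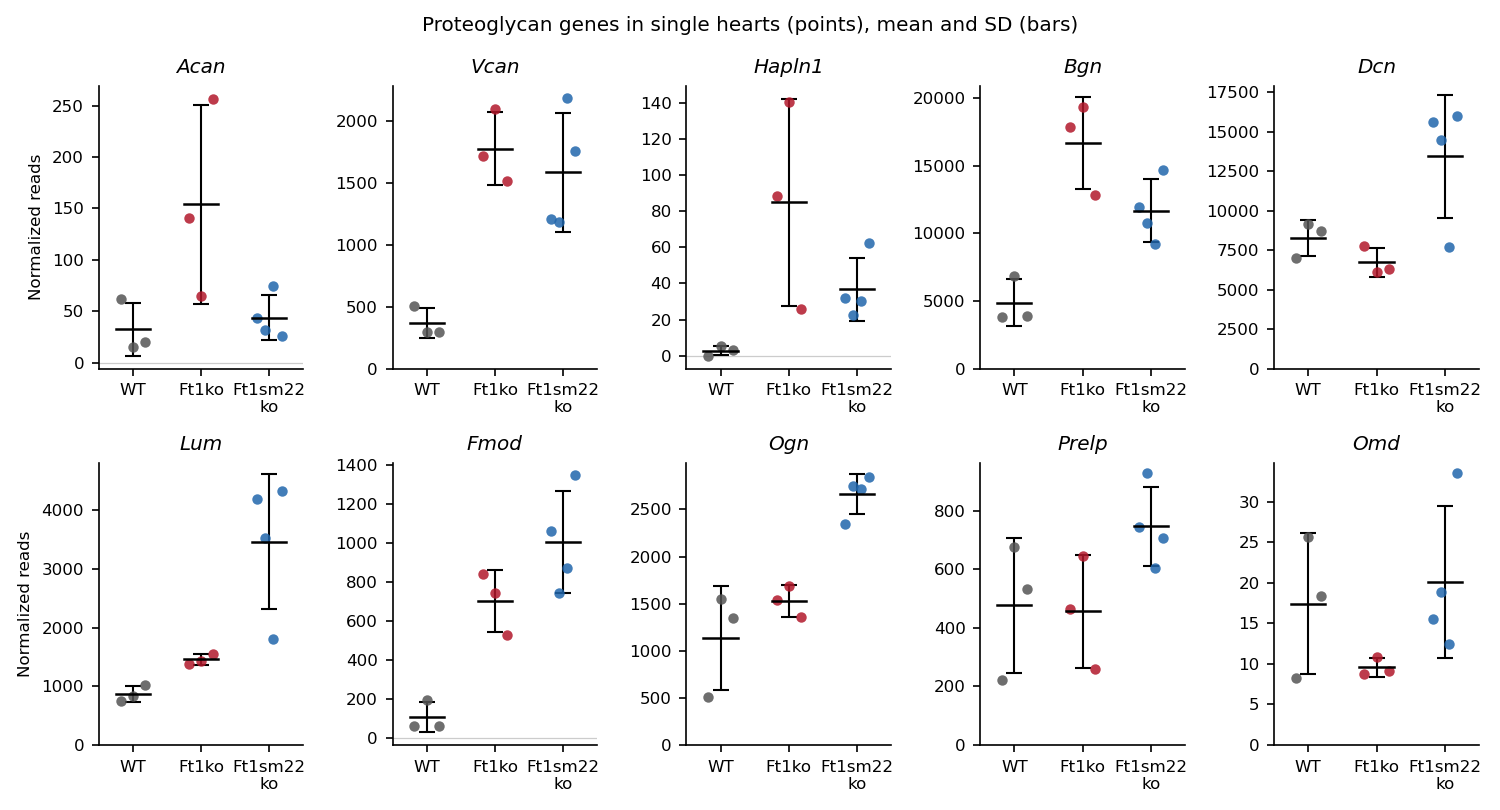
Normalized reads of the 10 genes, with 1 point a heart, a horizontal bar at the group mean and whiskers of 1 SD, each panel on its own linear scale that includes 0 (3 WT, 3 Ft1ko and 4 Ft1sm22ko hearts). Points of both mutants lie above all WT points for Vcan, Hapln1, Bgn, Lum and Fmod, and groups overlap for Prelp and Dcn.

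Levels of different genes were compared per kilobase of exon, with lengths from the GENCODE M21 annotation. In WT hearts Dcn led with a mean of 1417 normalized reads per kb, followed by Bgn at 797, Ogn at 442, Lum at 356, Prelp at 132, Fmod at 32.2, Vcan at 25.2, Omd at 7.75, Acan at 4.35 and Hapln1 at 0.463. Hearts of neighbours in this order overlapped for Ogn and Lum, Fmod and Vcan, and Omd and Acan. In Ft1ko hearts Bgn stood first at 2731 per kb and Dcn second at 1152, with no overlap between the hearts of both genes. In Ft1sm22ko hearts Dcn was at 2302 and Bgn at 1910 per kb, and their hearts overlapped. Omd was last in Ft1ko at 4.26 per kb, and Acan was last in Ft1sm22ko at 5.86.

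Of the large proteoglycans and their link protein, Vcan and Hapln1 rose in both mutants and Acan in Ft1ko. Versican carries the bulk of the chondroitin sulfate in valve tissue. Vcan was at 504, 297 and 293 normalized reads in WT a, b and c, at 1721, 2095 and 1517 in Ft1ko a, b and c, and at 1210, 1185, 2186 and 1758 in Ft1sm22ko a to d. All 7 mutant hearts were thus above the highest WT heart. The log2 fold change was 2.32 in Ft1ko (SE 0.27, adjusted p = 0.00169), a 4.99-fold rise, and 2.14 in Ft1sm22ko (SE 0.28, adjusted p = 0.00189), a 4.40-fold rise. Leaving out any 1 heart kept both calls.

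Hapln1, the link between hyaluronan and its proteoglycans, had 0, 2 and 2 reads in the 3 WT libraries, or 0, 5.12 and 3.07 normalized reads. It was at 88.4, 140 and 26.1 normalized reads in Ft1ko and at 31.9, 22.6, 30.4 and 62.1 in Ft1sm22ko. No mutant heart overlapped WT, but Ft1ko c was far below the other Ft1ko hearts. Its log2 fold change was 4.32 in Ft1ko (SE 0.85, adjusted p = 0.0079) and 3.57 in Ft1sm22ko (SE 0.73, adjusted p = 0.00824), and with so few WT reads its size depends on the pseudocount. It also moved with single hearts, from 3.69 without WT a to 5.0004 without Ft1ko c in Ft1ko, and from 2.82 without WT a to 4.08 without WT b in Ft1sm22ko, with the call kept each time. With voom weights neither Hapln1 nor Acan was called in Ft1ko. In Ft1sm22ko over WT Hapln1 was too low to be tested when reads were thinned to the size factor of WT a.

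Acan, the main proteoglycan of cartilage, which is also made in valves, was at 62.0, 15.4 and 19.98 normalized reads in WT and at 141, 64.3 and 257 in Ft1ko. All Ft1ko hearts were above WT, although Ft1ko b exceeded WT a only slightly. The log2 fold change was 2.24 (SE 0.66, adjusted p = 0.0332), and it was not called without WT b, WT c, Ft1ko a or Ft1ko c in turn, when it lay between 1.77 and 2.20. In Ft1sm22ko it was at 43.2, 31.3, 74.5 and 26.2, which overlaps WT, and was not called (log2 fold change 0.59, 95% interval -0.67 to 1.85, adjusted p = 0.443). The summed level of 10 recovered cartilage markers was 568 to 1365 in WT, 896 to 1260 in Ft1ko and 665 to 779 in Ft1sm22ko. In WT much of it came from Sox6, at 238 to 459, and Col11a2, at 164 to 591. These were at 140 to 258 and 80.2 to 211 in Ft1ko. Matn4 was at 12.3 to 53.8 in WT and 38.5 to 549 in Ft1ko, and Comp at 20.7 to 56.3 and 155 to 161. Single markers did move, with 3 of 8 tested called higher and 0 lower in Ft1ko, and 2 of 7 higher and 1 lower in Ft1sm22ko. The cartilage collagen Col2a1 was at 0 to 8.27 normalized reads in WT, at 26.2, 56.0 and 85.5 in Ft1ko a, b and c, all above WT, and at 3.77 to 31.3 in Ft1sm22ko. The part of cartilage in the Acan level was not tested.

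Among the small proteoglycans, Bgn and Dcn are close relatives that bind collagen and growth factors of the Tgf beta family. Bgn was at 3829, 6860 and 3888 normalized reads in WT, at 17815, 19302 and 12847 in Ft1ko, and at 11931, 10772, 9182 and 14708 in Ft1sm22ko. All mutant hearts were above all WT hearts, and Ft1sm22ko c was the lowest of the mutants. On the log2 scale the change was 1.81 in Ft1ko (SE 0.36, adjusted p = 0.00786) and 1.32 in Ft1sm22ko (SE 0.28, adjusted p = 0.00926).

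Dcn was at 6980, 9152 and 8680 normalized reads in WT, at 7762, 6110 and 6308 in Ft1ko, and at 15596, 14493, 7694 and 15969 in Ft1sm22ko. The Ft1ko hearts overlapped WT, while 3 of 4 Ft1sm22ko hearts exceeded every WT heart and Ft1sm22ko c did not. Neither change was called, with a log2 fold change of -0.29 in Ft1ko (95% interval -0.94 to 0.35, adjusted p = 0.448) and 0.68 in Ft1sm22ko (95% interval -0.01 to 1.36, adjusted p = 0.118). Without Ft1sm22ko c the gene was called higher in Ft1sm22ko at 0.92 (adjusted p = 0.0315). The reads of Bgn and Dcn are less certain than those of the other 8 members, because these 2 genes are so abundant that 0.00191 and 0.00398 other sets of whole reads were expected to give the same means. The group means worked out from the 3 deposited means by algebra alone gave log2 fold changes of 1.75 and -0.29 for Bgn and Dcn in Ft1ko and 1.24 and 0.71 in Ft1sm22ko.

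The balance of both genes differed between the groups, as the plot of the make-up of proteoglycan reads shows. The ratio of Bgn to Dcn reads was 0.448 to 0.7496 in WT, 2.04 to 3.16 in Ft1ko and 0.743 to 1.19 in Ft1sm22ko. Ft1ko lay above the other groups, and Ft1sm22ko overlapped WT. Dcn held 46.7% to 54.7% of the normalized reads of the 10 genes in WT, 19.0% to 25.6% in Ft1ko and 30.6% to 42.0% in Ft1sm22ko. Acan, Vcan and Hapln1 together held 1.62% to 4.38% in WT, 6.14% to 7.30% in Ft1ko and 3.46% to 9.10% in Ft1sm22ko. The summed level of all 10 genes rose from 12934 to 19607 in WT to a range of 24662 to 32239 in Ft1ko and of 25183 to 41779 in Ft1sm22ko.

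**Figure D3:**
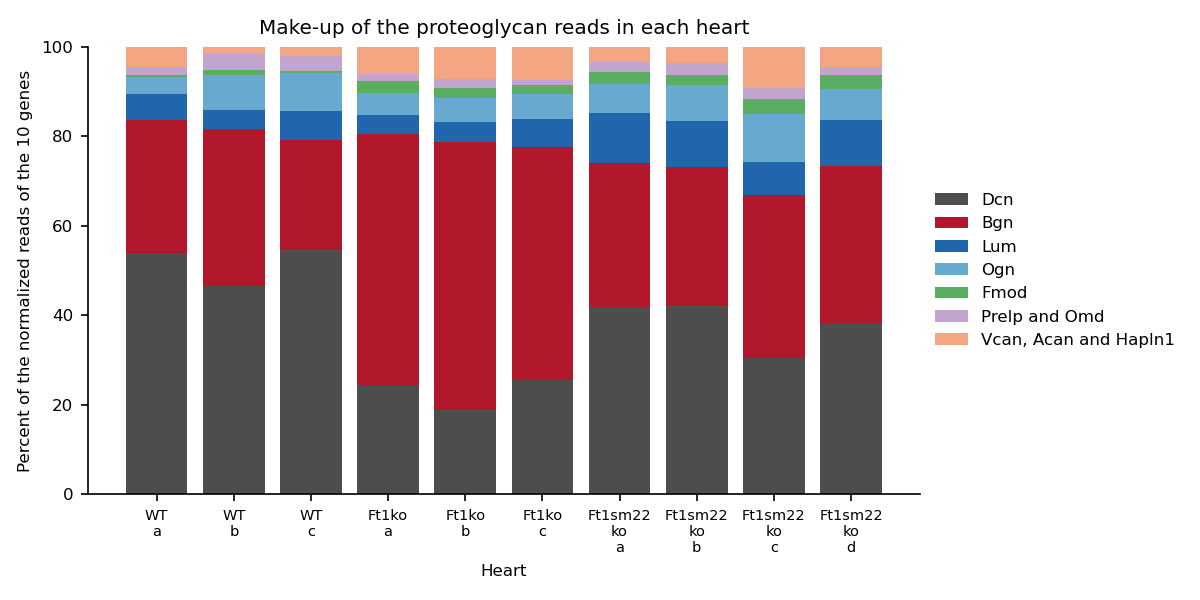
Share of the normalized reads of the 10 genes held by each gene or group of genes, in percent, 1 bar a heart. Bgn holds the largest share in the 3 Ft1ko hearts and in Ft1sm22ko c, and Dcn in the 3 WT hearts and the other 3 Ft1sm22ko hearts.

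Lum, which limits the width of collagen fibrils, was at 757, 835 and 1026 normalized reads in WT and at 1386, 1432 and 1554 in Ft1ko. It was at 4186, 3534, 1813 and 4327 in Ft1sm22ko, so that the 3 groups did not overlap in any pair and Ft1sm22ko c was nearest to Ft1ko. Its change on the log2 scale was 0.75 in Ft1ko (SE 0.21, adjusted p = 0.0305) and 1.95 in Ft1sm22ko (SE 0.30, adjusted p = 0.00302). The Ft1ko call was lost when any heart but WT a was left out, with log2 fold changes of 0.70 to 0.88, and in 1 fit to all 10 hearts. The Ft1sm22ko call was kept without any 1 heart.

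Fmod, a partner of Lum at the collagen fibril, changed most among the members with more than 10 reads in every WT library. It was at 62.0, 195 and 63.0 normalized reads in WT, at 839, 746 and 527 in Ft1ko, and at 1063, 743, 872 and 1348 in Ft1sm22ko. Its log2 fold change was 2.90 in Ft1ko (SE 0.46, adjusted p = 0.00405) and 3.43 in Ft1sm22ko (SE 0.40, adjusted p = 0.00118), rises of 7.47-fold and 10.8-fold. Leaving out any 1 heart kept both calls.

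Prelp was at 223, 676 and 532 normalized reads in WT, at 466, 647 and 260 in Ft1ko and at 745, 930, 606 and 708 in Ft1sm22ko. The Ft1ko hearts lay within the range of WT, and the Ft1sm22ko hearts overlapped its top. Neither change was called (log2 fold change -0.01, 95% interval -1.11 to 1.10, adjusted p = 0.992 in Ft1ko, and 0.80, 95% interval 0.02 to 1.57, adjusted p = 0.107 in Ft1sm22ko). Without WT b, the WT heart with most Prelp, it was called higher in Ft1sm22ko at 1.12 (adjusted p = 0.0427).

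Omd, known from bone matrix, was the member with fewest reads in Ft1ko. It was at 8.27, 25.6 and 18.4 normalized reads in WT, at 8.73, 10.9 and 9.14 in Ft1ko and at 15.5, 18.9, 12.4 and 33.6 in Ft1sm22ko. Its mean over WT and Ft1ko hearts did not reach 10 in the size factors of that comparison, and it was not tested there. The group means worked out by algebra alone gave a log2 fold change of -0.80 in Ft1ko. In Ft1sm22ko it was not called (log2 fold change 0.25, SE 0.55, adjusted p = 0.757).

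Ogn, which encodes osteoglycin, was at 509, 1547 and 1345 normalized reads in WT, at 1540, 1692 and 1358 in Ft1ko and at 2348, 2750, 2712 and 2840 in Ft1sm22ko. All Ft1sm22ko hearts were above all others, while Ft1ko overlapped WT b. The change was called in Ft1sm22ko (log2 fold change 1.40, SE 0.34, adjusted p = 0.0158) and not in Ft1ko (0.58, 95% interval -0.37 to 1.53, adjusted p = 0.306).

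**Figure D4:**
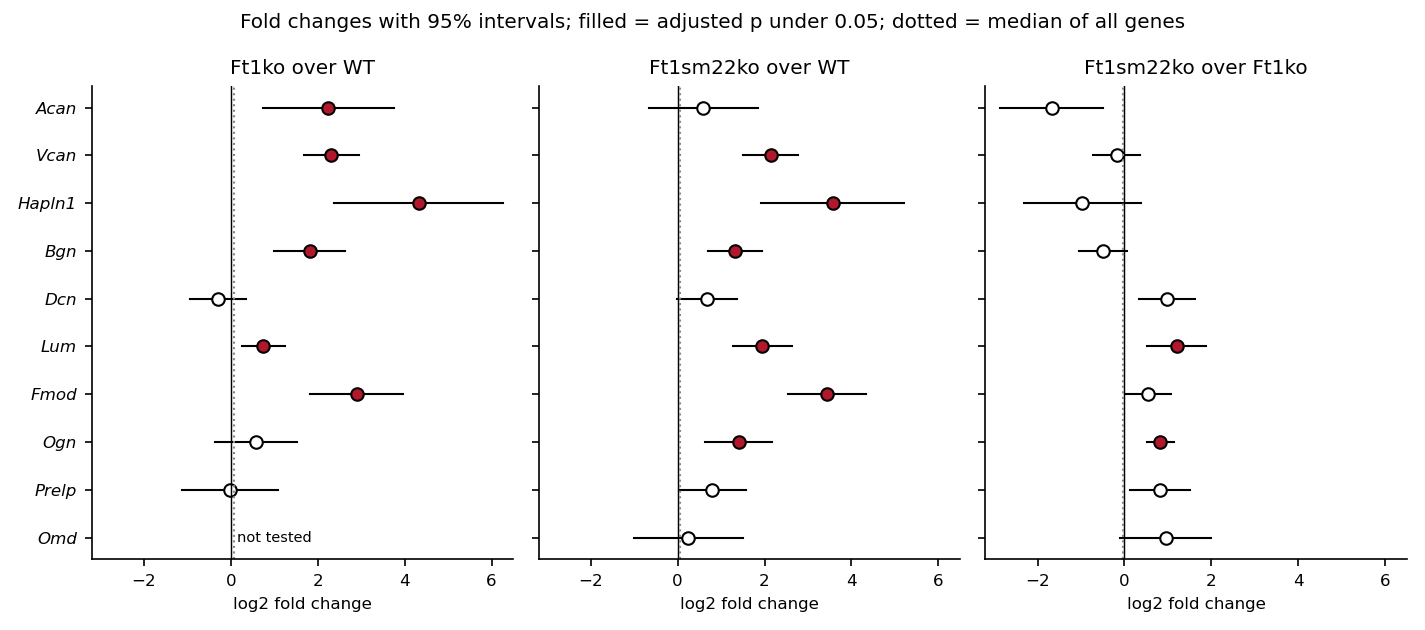
Log2 fold changes of the 10 genes in the 3 comparisons, with 95% intervals from limma, where filled points have an adjusted p under 0.05 and the dotted line is the median of all genes tested. Filled points are 6 in Ft1ko over WT, 6 in Ft1sm22ko over WT and 2, Lum and Ogn, in Ft1sm22ko over Ft1ko.

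The direct comparison of the mutants asks whether deletion by sm22-cre left another proteoglycan pattern than deletion in the whole body. Lum and Ogn were higher in Ft1sm22ko than in Ft1ko and no member was lower, while 6.7% of 15052 genes tested were called higher and 3.75% lower. Lum was higher by 1.198 on the log2 scale (SE 0.29, adjusted p = 0.0412), which is 2.29-fold. Ogn was higher by 0.83 (SE 0.14, adjusted p = 0.0281), or 1.77-fold. Omd also did not overlap between both mutants, as held in this direction for 14.5% of all genes tested, but was not called (0.95, SE 0.46, adjusted p = 0.181). For Dcn the difference was 0.97 (95% interval 0.32 to 1.63, adjusted p = 0.0614), for Prelp 0.81 (SE 0.30, adjusted p = 0.104) and for Fmod 0.53 (SE 0.23, adjusted p = 0.148). Acan differed the other way, by -1.67 (95% interval -2.86 to -0.49, adjusted p = 0.0705), as did Hapln1 by -0.97 (-2.31 to 0.37, adjusted p = 0.281), Bgn by -0.49 (-1.04 to 0.06, adjusted p = 0.188) and Vcan by -0.18 (-0.71 to 0.36, adjusted p = 0.635). By unadjusted p under 0.05, 5 members were higher and 1, Acan, was lower.

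The median over the members was 0.67 against -0.03 for all genes tested. The calls of Lum and Ogn rest on few hearts. Lum was lost when any heart but Ft1sm22ko c was left out, with differences of 1.08 to 1.25, and Ogn was lost without Ft1ko b, Ft1sm22ko a or Ft1sm22ko b, with differences from 0.74 to 0.91 over all 7 hearts left out in turn. Without Ft1sm22ko a or Ft1sm22ko b 0 of all genes tested were called higher, and without Ft1ko b 7 were. Without Ft1sm22ko c, Dcn was called as well, at 1.23 (adjusted p = 0.0295).

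Hearts that stood apart in tissue markers were left out as a check that was chosen after the data were seen. Without Ft1ko a and b, whose lung markers were high, 1 Ft1ko heart remained and is assumed to vary like the others. Then 0 members were called against WT, and 1.41% of all genes were called higher, while the log2 fold change was 2.11 for Vcan, 1.47 for Bgn, 2.51 for Fmod, 3.19 for Acan and 0.85 for Lum, and Hapln1 was too low to be tested. Against that heart, Ogn and Prelp were called higher in Ft1sm22ko and Acan lower, and the differences of Vcan and Hapln1 turned to 0.04 and 0.41 with no call. Without Ft1sm22ko c and d, Vcan, Lum and Fmod were still called higher than in WT and 2.48% of all genes were. Without Ft1ko c, the heart with thymocyte markers, Vcan, Hapln1, Bgn and Fmod were called in Ft1ko.

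Markers of the cells that make these proteoglycans did not move as 1 group. The summed level of 8 valve interstitial markers was 7812 to 9531 in WT, 24321 to 26443 in Ft1ko and 22746 to 30866 in Ft1sm22ko. Neither mutant overlapped WT. Postn, at 2194 to 3420 in WT and 14247 to 21492 in the mutants, made up most of the sum in the mutants only. Timp3 was at 2978 to 3932 in WT and 2427 to 4989 in the mutants. Of the 8 valve markers, 4 were called higher and 0 lower in each mutant. The 5 endocardial markers summed to 1366 to 1629 in WT, 5548 to 10866 in Ft1ko and 4964 to 7989 in Ft1sm22ko. The 9 epicardial and mesothelial markers summed to 868 to 1559, 6653 to 7416 and 3436 to 10961. The 6 recovered fibroblast markers summed to 21097 to 23016 in WT, 11099 to 21022 in Ft1ko and 12628 to 20477 in Ft1sm22ko, a sum carried mostly by Tcf4 and Gsn. Of these 6, 2 were called higher and 1 lower in Ft1ko, and 3 higher and 1 lower in Ft1sm22ko. Tcf4, the lower one, was at 7469 to 17499 in WT and 2239 to 5397 in the mutants, while Dpt was at 1935 to 2643 in WT and 3546 to 6762 in the mutants, and Tcf21 at 95.1 to 156 and 189 to 806. Tendon and ligament markers, 5 genes, summed to 121 to 182, 399 to 516 and 232 to 597, while their defining gene Tnmd was at 0 to 5.22 normalized reads in every heart. Their part in the proteoglycan levels was not tested. Of 5 smooth muscle markers, 6 fat markers and 7 skeletal muscle markers, the sums were 6053 to 15750, 1054 to 1705 and 686 to 1563 in WT, 7534 to 11410, 2031 to 5879 and 425 to 945 in Ft1ko, and 4856 to 8193, 1009 to 2630 and 602 to 2018 in Ft1sm22ko. These sums hide single markers. Of the smooth muscle markers 4 of 5 were called higher and 1, Smtn, lower in Ft1ko, and 2 of 5 higher and 0 lower in Ft1sm22ko. Smtn held most of the WT sum, at 4514 to 13497, whereas Tagln was at 594 to 1063 in WT, 2884 to 4081 in Ft1ko and 1209 to 2335 in Ft1sm22ko. Of 5 fat markers tested, 4 were called higher in each mutant, while Cidea, which made up most of the WT sum, was not. Of 5 skeletal muscle markers tested, 1 was called higher and 1 lower in Ft1ko.

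Several members lie side by side in the genome. In the RefSeq annotation Hapln1 is next to Vcan and Prelp next to Fmod, Dcn next to Lum, and Omd next to Ogn. Hapln1 and Vcan were both called in both mutants. Of the other pairs, Fmod and Lum were called in both mutants and their neighbours Prelp and Dcn in neither, and Ogn was called in Ft1sm22ko and Omd was not. The difference between neighbours was not tested. Of the family genes beside members, Aspn, which encodes asporin and lies beside Omd, was at 1149 to 1658 normalized reads in WT, 2404 to 3743 in Ft1ko and 2458 to 3613 in Ft1sm22ko, and rose by 1.08 (SE 0.26, adjusted p = 0.0164) and 1.12 (SE 0.20, adjusted p = 0.00488). Ecm2, beside Aspn, was at 343 to 461, 358 to 499 and 385 to 749 and was called in neither (adjusted p = 0.656 and 0.076). Optc, beside Prelp, was at 0, 0 and 7.68 in WT, 24.0 to 35.9 in Ft1ko and 3.22 to 30.4 in Ft1sm22ko, and was called in Ft1ko only (adjusted p = 0.0191, against 0.0982 in Ft1sm22ko), a difference between the mutants that was not called (adjusted p = 0.29). Epyc, near Lum, had 1 read in all of WT and was at 12.5 to 21.5 in Ft1ko and 3.22 to 34.0 in Ft1sm22ko. It was called in Ft1sm22ko (adjusted p = 0.0262) and too low to be tested in Ft1ko. Optc and Epyc, like Hapln1, passed the filter only through the mutant hearts. Kera, at 0 to 8.27, and Hapln3, beside Acan, at 1.67 to 12.8, were too low to be tested against WT.

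The 250 bases before the transcription start of Vcan, Hapln1, Fmod and Prelp are printed here as the windows of a pair of neighbours that were both called and of a pair of which 1 was. They come from the RefSeq promoter table (GRCm38.p6), which held 8 of the 10 members. Capitals mark matches, on either strand, to a TATA box (TATAAA), an AP-1 site (TGANTCA), a SOX core (ACAAT) or a GC box (GGGCGG), none of which overlaps another kind here.
Vcan, chr13:89742513-89742762, minus strand: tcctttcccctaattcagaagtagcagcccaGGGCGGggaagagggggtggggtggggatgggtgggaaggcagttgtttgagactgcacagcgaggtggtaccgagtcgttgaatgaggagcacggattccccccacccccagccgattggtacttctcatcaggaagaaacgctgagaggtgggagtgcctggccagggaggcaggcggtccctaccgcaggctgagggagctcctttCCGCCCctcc
Hapln1, chr13:89540386-89540635, plus strand: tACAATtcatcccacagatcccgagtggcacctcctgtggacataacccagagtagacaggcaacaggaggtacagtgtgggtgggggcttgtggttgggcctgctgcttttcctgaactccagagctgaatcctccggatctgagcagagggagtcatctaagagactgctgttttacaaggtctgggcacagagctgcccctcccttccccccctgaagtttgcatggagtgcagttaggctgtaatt
Fmod, chr1:134037004-134037253, plus strand: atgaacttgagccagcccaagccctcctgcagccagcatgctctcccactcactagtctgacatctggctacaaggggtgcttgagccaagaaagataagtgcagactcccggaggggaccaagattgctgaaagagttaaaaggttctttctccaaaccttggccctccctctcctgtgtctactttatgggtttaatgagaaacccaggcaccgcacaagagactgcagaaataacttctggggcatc
Prelp, chr1:133921402-133921651, minus strand: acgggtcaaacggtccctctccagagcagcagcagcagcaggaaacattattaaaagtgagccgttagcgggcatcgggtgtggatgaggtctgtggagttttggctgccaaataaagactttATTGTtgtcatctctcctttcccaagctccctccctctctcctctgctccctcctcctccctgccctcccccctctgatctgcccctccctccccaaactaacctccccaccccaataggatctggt

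The Vcan window holds a GC box 219 and another 10 bases before the start, the Hapln1 window a SOX core 249 bases before it and the Prelp window a SOX core at 127 bases, while the Fmod window holds none of these letters. Among the 8 members with a window, a GC box was found in 3 (Acan, Vcan and Bgn), a SOX core in 3 (Hapln1, Prelp and Omd), a TATA box in 1 (Ogn, 227 and 229 bases before the start) and an AP-1 site in 0. Of 32851 windows of the same length in the table, 32.7% hold a GC box, 27.7% a SOX core, 12.4% a TATA box and 6.75% an AP-1 site. Of Vcan, Hapln1, Bgn and Fmod, called in both mutants, Vcan and Bgn share the GC box, and none of these motifs was found in all 4.

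Other genes of proteoglycan biology were described from 9 lists, whose counts the plot of gene lists shows. Of all genes tested, 18.1% were called higher and 14% lower in Ft1ko, and 16.3% and 14.1% in Ft1sm22ko. Among the called genes, Optc, Epyc, Cemip, Has1, Itih2, Chsy3, B3gnt7, Spock3 and Cspg5 had WT means under 10 normalized reads. They passed the filter only through the mutant hearts. Their calls, which the counts below include, are therefore not independent of the filter. Of the other small leucine-rich proteoglycans, 5 of 7 tested rose in Ft1ko (Podn, Chad, Aspn, Optc and Tsku) and 2 of 8 in Ft1sm22ko (Aspn and Epyc), with none lower. Podn, a relative of the class that lies outside the clusters above, was at 1162 ± 108 normalized reads in Ft1ko and 311 ± 70.04 in WT (SD, n = 3). Chad, a leucine-rich protein of cartilage, was at 575 ± 249 in Ft1ko and 20.2 ± 32.7 in WT (SD, n = 3). Of the other lecticans and link proteins (Ncan, Bcan, Hapln2, Hapln3 and Hapln4), 0 of 5 were abundant enough to be tested in Ft1ko and 1 was in Ft1sm22ko, which was not called, although its unadjusted p in limma was under 0.05.

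Hyaluronan is the partner of Vcan and Acan. Of its genes, 8 of 12 tested rose in Ft1ko (Itih5, Cemip, Itih2, Cd44, Lyve1, Tnfaip6, Hmmr and Has1) and 6 of 13 in Ft1sm22ko (Itih5, Has1, Cemip, Tnfaip6, Hmmr and Lyve1). The medians of the list were 2.01 and 1.69 on the log2 scale. Has1, a hyaluronan synthase, was at 57.2 ± 22.6 normalized reads in Ft1sm22ko (SD, n = 4), a log2 fold change of 2.88 over WT (SE 0.52, adjusted p = 0.00505). Cemip, which takes part in hyaluronan breakdown, was at 87.8 ± 48.2 in Ft1ko (SD, n = 3), a log2 fold change of 3.89 over WT (SE 0.72, adjusted p = 0.00663). Itih5, whose protein family binds hyaluronan covalently, rose by 1.48 (SE 0.23, adjusted p = 0.00349) and 1.69 (SE 0.17, adjusted p = 0.000693). Hmmr, a receptor in the list by name, is also a gene of the mitotic spindle, and Lyve1 marks lymphatic vessels and some macrophages.

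Enzymes that build chondroitin and dermatan sulfate moved in both directions, mostly up. Of 23 tested, 10 rose and 2 fell in Ft1ko, and 12 rose and 1 fell in Ft1sm22ko, with medians of 0.71 and 0.72. Those that rose in Ft1ko were Papss1, Chsy1, Chst12, Dse, Ust, Chsy3, Chpf2, Csgalnact2, Chpf and Dsel, while B3gat3 and Papss2 fell. In Ft1sm22ko Papss1, Chsy1, Dse, Csgalnact2, Chpf, Chst14, Chst12, Dsel, Chpf2, Ust, Chsy3 and Fam20b rose and B3gat3 fell. Papss1, which makes the sulfate donor, rose by 1.90 (SE 0.29) and 1.57 (SE 0.23). Chsy1, which polymerizes the chain, rose by 1.27 (SE 0.22) and 1.11 (SE 0.18), and Dse, which turns chondroitin into dermatan sulfate, by 2.01 (SE 0.40) and 1.75 (SE 0.32). Of 9 keratan sulfate genes tested, B3gnt7, Chst4, Chst2 and St3gal1 rose and Chst1 fell in Ft1ko, and St3gal1, Chst4, St3gal2, B3gnt7 and Chst2 rose and B4galt4 fell in Ft1sm22ko.

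Adamts proteases cleave Vcan and Acan. Of 7 tested, Adamts8 and Adamts1 rose and Adamts5 fell in Ft1ko, and Adamts8, Adamts4 and Adamts1 rose and Adamts5 fell in Ft1sm22ko. In Ft1ko, 2 of 7 higher and 1 of 7 lower are not far from the 18.1% and 14% of all genes tested. In Ft1sm22ko 3 and 1 of 7 compare with 16.3% and 14.1%. Adamts8 was at 33.9 ± 14.8 normalized reads in WT (SD, n = 3), 966 ± 91.4 in Ft1ko (SD, n = 3) and 470 ± 81.0 in Ft1sm22ko (SD, n = 4), and it was lower in Ft1sm22ko than in Ft1ko by -1.03 on the log2 scale (SE 0.16, adjusted p = 0.0275). Adamts5, a main aggrecanase and versicanase, was at 1237 ± 55.7 in WT, 540 ± 108 in Ft1ko and 833 ± 120 in Ft1sm22ko.

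Of 11 heparan sulfate proteoglycans tested, Gpc3, Sdc1, Gpc6, Sdc4, Gpc2, Gpc4 and Col18a1 rose in Ft1ko, and Gpc6, Gpc3, Sdc1, Col18a1, Gpc4 and Sdc2 rose and Agrn fell in Ft1sm22ko. Sdc1, a cell surface proteoglycan of epithelia and plasma cells, was at 1659 ± 790 in Ft1ko, where 2 hearts had high lung markers, and at 574 ± 155 in Ft1sm22ko, and was called lower in the latter (adjusted p = 0.0392). Among other chondroitin sulfate proteoglycans, Spock2, Ptprz1, Spock3, Prg4, Cspg5 and Esm1 rose and Cspg4 fell in Ft1ko, and Spock2, Prg4 and Ptprz1 rose in Ft1sm22ko. Prg4, the lubricin of joints and mesothelial surfaces, was at 17.3 ± 7.81 in WT, 109 ± 72.0 in Ft1ko and 122 ± 71.7 in Ft1sm22ko.

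Collagens and fibril partners showed the highest share of calls, with the same 8 of 9 tested genes higher in both mutants (Col12a1, Col14a1, Thbs4, Col5a2, Col11a1, Comp, Col5a1 and Dpt). The list's median was 2.15 in Ft1ko and 2.12 in Ft1sm22ko on the log2 scale. Reads of the most abundant fibrillar collagens, Col1a1, Col1a2 and Col3a1, could not be recovered and were not tested. Col12a1, which decorates fibrils, was at 34.0 ± 13.9 in WT, 756 ± 33.5 in Ft1ko and 363 ± 190 in Ft1sm22ko. Between the mutants, 0 genes of the lists were called higher and only Adamts8, Sdc1 and Spock2 lower with limma. Of all genes tested, 6.7% were called higher and 3.75% lower. At an unadjusted p under 0.05 in limma, counts per list were 0 to 2 higher and 0 to 4 lower. Spock2, a secreted proteoglycan, was at 1237 ± 687 in Ft1ko and 283 ± 71.9 in Ft1sm22ko.

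**Figure D5:**
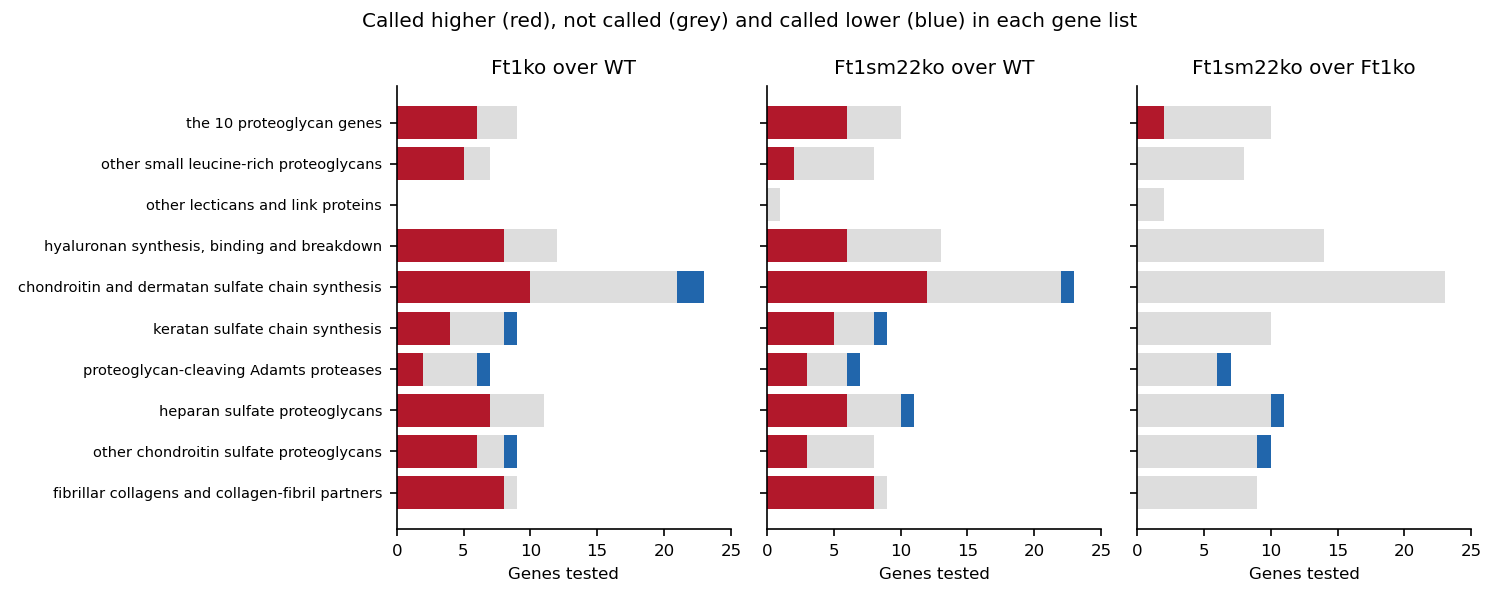
Number of genes tested in each list that were called higher (red), not called (grey) or called lower (blue) in the 3 comparisons, with bars stacked from 0. Of the 10 proteoglycan genes, 6 are red in each comparison with WT and 2 between the mutants.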

How the data were processed

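RNA of 10 hearts was sequenced with a stranded mRNA kit. The authors aligned reads with STAR to a reference they name hg38, although the gene symbols are those of mouse, counted them with htseq-count and ran DESeq2 on each pair of groups. The deposited signal used here is the mean, for each gene and pair of groups, of counts that the authors divided by 1 size factor per library. The deposited tables also hold the authors' fold changes, test statistics and p-values, which were not used.

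Whole reads per heart were recovered from the 15 digits of the 3 deposited means by searching for the integers that give them. This succeeded for 17116 of 17575 genes (97.4%). Libraries were matched between tables by low genes whose reads were worked out in each table alone. Libraries that occur in 2 tables had equal reads in 100% of these genes with reads, against at most 11.9% for other pairs. This match does not cover abundant genes such as Bgn and Dcn. Size factors recomputed from the reads lay within 0.411%. Of genes in 2 or 3 tables, 170 were not recovered, and these very abundant genes hold 24.8% to 44.5% of the summed signal. A gene was kept where fewer than 0.01 other solutions were expected. That limit was set after the values for Bgn and Dcn were seen, and an earlier, looser search had given another answer for Bgn. All 10 members had the same reads when the spread between hearts assumed in the search was 0.3 in place of 0.5. The search and the fits were checked on simulated data. Letters a to d order the libraries roughly by size factor, and libraries could not be tied to the replicate numbers of the labels.

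Groups were taken from the labels. Each pair of groups was fitted with limma 3.58.1 (R 4.3.3, lmFit and eBayes with trend) on log2(normalized reads + 1), with only the hearts of both groups and genes with a mean of 10 or more, and p-values were adjusted by Benjamini-Hochberg over all genes tested. Intervals are at 95%. The members, the 9 gene lists and the 13 marker lists were chosen with earlier results of these data known. Named were all members, Aktip, family genes beside a member in the genome and, in each list, every called gene, with values for at most 4 of smallest p. Alternatives were other pseudocounts (0.5 and 5), filters (none and 50), scalings, voom weights, 1 fit to all hearts, Bonferroni adjustment, a 2-fold threshold and leaving out each heart. Thinning of reads, a stricter recovery (0.001) and leaving out pairs of hearts were added after the data were seen.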

Additional observations from a re-analysis of the deposited data

Results flagged for a closer look

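Lum and Ogn differed between the mutants. The log2 fold change of Ft1sm22ko over Ft1ko was 1.2 for Lum and 0.827 for Ogn. Both come from the limma test of the mutants against each other, which uses no WT heart (adjusted p = 0.0412 and 0.0281). For both genes all 4 Ft1sm22ko hearts lay above all 3 Ft1ko hearts. Over the alternatives the adjusted p ranged from 0.0154 to 0.170 for Lum and from 0.0208 to 0.134 for Ogn.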

How the results depend on the processing

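With Bonferroni adjustment over all genes, 0 members were called higher in Ft1ko over WT, 0 in Ft1sm22ko over WT and 0 in Ft1sm22ko over Ft1ko. Leaving out both Ft1ko a and b gave 0 members higher over WT, 1 member lower in Ft1sm22ko over Ft1ko (Acan), and differences of 0.0407 for Vcan and 0.41 for Hapln1 between the mutants, which turned their sign. Leaving out both Ft1sm22ko c and d gave 3 members higher over WT. Fewer hearts enter these fits. Between the mutants, 1 member was called higher in 1 fit to all 10 hearts (Lum). With scaling by total reads in the recovered genes 1 was called (Ogn), and 1 where a 2-fold change was asked for as well (Lum). The cause of these changes was not tested. Leaving out each heart in turn gave 4 to 6 members higher in Ft1ko over WT, 6 to 7 in Ft1sm22ko over WT and 0 to 3 in Ft1sm22ko over Ft1ko.

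The log2 fold change of Prelp in Ft1ko, near 0, turned to 0.24 with total reads in the recovered genes. It was 0.0885 with the upper quartile and 0.0656 with thinned reads, and ranged from -0.49 to 0.35 with each heart left out. That of Omd in Ft1sm22ko over WT ranged from -0.18 to 0.58. Of 158 fold changes of members over the alternatives in Ft1ko over WT, 135 kept direction and call, 17 lost the call and 6 turned. In Ft1sm22ko over WT 175 of 182 kept both, and between the mutants 178 of 196. These counts include the group means by algebra alone, which have no test. Such a value was counted as kept where it differed from the main fit by less than its SE. WT libraries have the fewest reads in the recovered genes and the smallest size factors, so low genes such as Hapln1 and Acan rest on few reads there. Whether they are also the shallowest over all genes is not known. No paired analysis was possible because the recovered libraries carry no replicate number.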
